A study of Mus musculus with 13 samples.

Results

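The comparison described here asks which genes differed in level between mouse melanomas labelled Cdkn2a/Braf/Lkb1 and melanomas labelled Cdkn2a/Braf, so that the alteration of Lkb1 is the labelled difference. It uses 4 of the 13 Affymetrix arrays of the study, 2 of each genotype, taken by their labels, and covers 19937 genes. Both groups carry the Cdkn2a and Braf alterations, and both are uncultured tumour tissue, so each array holds the RNA of the whole tissue. The labels give the replicates as biological replicates and do not give the strain, age, tumour site, allele forms or the driver of recombination. The other arrays hold sorted melanocytes (Cdkn2a alone at day 19, Cdkn2a/Braf at days 19 and 50, 2 arrays each) and 3 arrays of pooled Lkb1/Braf melanocytic proliferations, also uncultured tissue, which are set beside the results because they share the Lkb1 label. Every level below is log2(intensity + 1). Every difference is the mean of the 2 Cdkn2a/Braf/Lkb1 arrays (called the Lkb1 melanomas) minus the mean of the 2 Cdkn2a/Braf arrays on that scale. The error given is the moderated standard error (SE) of that difference in the linear model fit (limma). It uses a spread estimated from all 13 arrays in 6 groups, not from the 2 and 2 tumours alone.

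LKB1, the product of the gene Stk11, is a tumour suppressor kinase that switches on AMPK, the cell's sensor of low energy, and a family of AMPK-related kinases that includes the SIK and MARK kinases. Active AMPK restrains mTORC1, the kinase complex that drives protein synthesis and growth, and SIK kinases hold back the CRTC coactivators of CREB. CDKN2A encodes the p16 and ARF brakes on the cell cycle, and mutant BRAF drives the MAPK cascade in many melanomas.

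The targeted gene was not clearly lower. Stk11 had levels of 8.90 and 8.63 on the Cdkn2a/Braf arrays, 8.36 and 7.86 on the Lkb1 arrays, and 8.09, 8.23 and 8.36 in the Lkb1/Braf proliferations. The 4 tumour values did not overlap between genotypes, which was also true of 53.5% of all genes. The difference of -0.65 ± 0.39 missed the threshold (adjusted p = 0.396 in limma over all genes). The sources used here do not say whether the probe set lies in a deleted stretch. The difference was -0.41 without replicate 2 of the Lkb1 melanoma. Braf differed by -0.05 ± 0.13 and Cdkn2a by -0.04 ± 0.16, neither past the test. The tumours of both genotypes carried little RNA of several melanin and melanosome genes. Tyr, the enzyme that starts melanin synthesis, lay between 3.99 and 4.45 on the 4 tumour arrays and between 11.66 and 11.96 in sorted day 19 melanocytes. Mlana lay between 6.49 and 6.98 in the tumours, 10.09 and 10.41 in the proliferations, and 13.19 and 13.31 at day 19. Lineage transcription factors varied. On the tumour arrays and in sorted melanocytes, Pax3 was 8.35 to 9.26 and 10.19 to 11.26, and Tfap2a was 8.66 to 8.85 and 8.30 to 9.95. Mitf was 6.07 to 6.94 and 10.01 to 10.68. Of 17 melanin synthesis and melanosome genes none passed the test between the tumours (median difference -0.17), with 2 called lower without replicate 1 of the Cdkn2a/Braf melanoma and 1 called higher without replicate 1 of the Lkb1 melanoma. In bulk tissue, fewer cells of a type and less RNA per cell cannot be told apart.

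Across the table, 510 genes (2.56%) passed an adjusted p of 0.05 in limma, 364 higher (1.83%) and 146 lower (0.732%) in the Lkb1 melanomas, and the median difference of all genes was -0.04. All 510 had groups that did not overlap, which is also true of 53.5% of all genes with 2 arrays a side. The spread that these tests use comes from all 6 groups of the study: a fit on the 4 tumour arrays alone left 8 calls, Gdpd3 lower and AI506816, Trim30d, Glipr1, Ramp3, H2-Eb1, Ms4a6d and Cd209d higher. Leaving out 1 tumour array, as done below, leaves 1 array in that genotype. This enlarges the SE for the same spread and takes that genotype's own replicate spread out of the test. A call can then be lost or gained with little change in the difference, so the differences are the better guide. Of the 510 genes, 96 (68 higher, 28 lower) were called again when any 1 of the 4 tumour arrays was left out, and no difference among them moved by more than 1.5 times. Replicate 2 of the Cdkn2a/Braf melanoma weighed most: without it 135 genes were called, and without replicate 1 of that genotype 737.

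**Figure D1:**
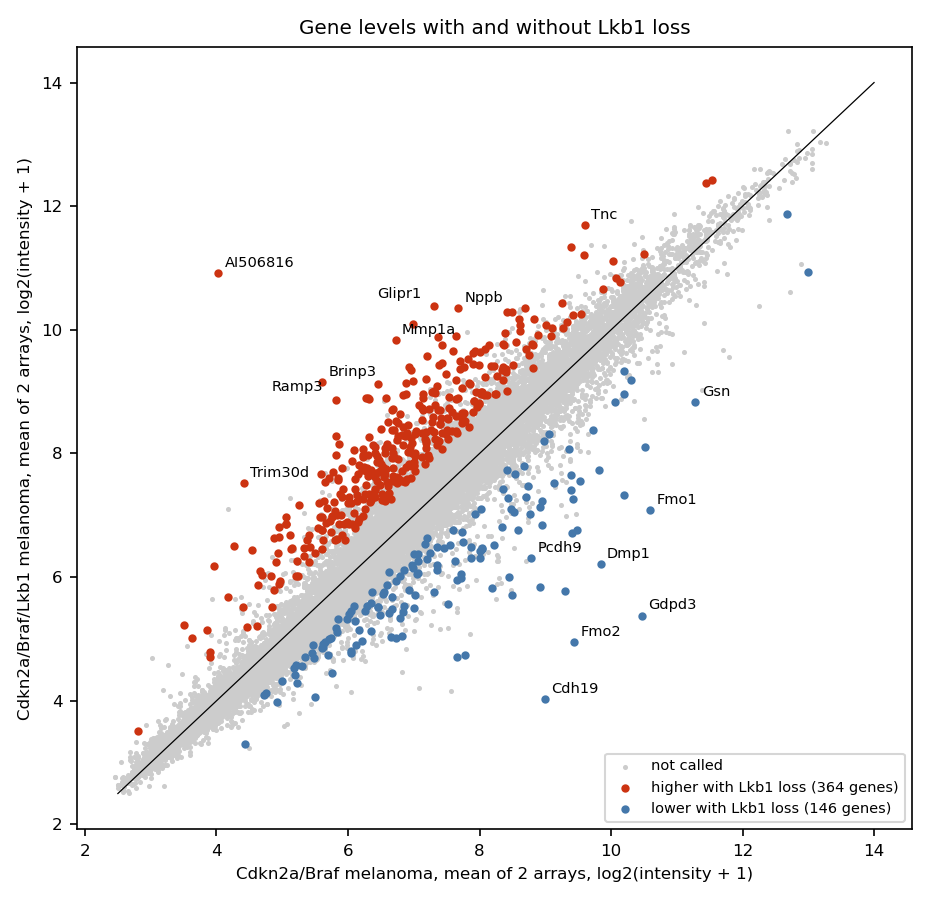
Each point is 1 of 19937 genes, at its mean level on the 2 Cdkn2a/Braf arrays (x) and on the 2 Cdkn2a/Braf/Lkb1 arrays (y), both as log2(intensity + 1), with the line of equal level. The 364 genes called higher are red, the 146 called lower are blue, and AI506816 and Gdpd3 stand farthest from the line.

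Cell type markers differed between the tumours and between replicates, and the list sums below are log2 of the summed intensity of the markers. Keratinocyte markers summed to 13.19 on replicate 2 of the Cdkn2a/Braf melanoma, against 10.13 on its replicate 1 and 9.96 and 10.85 on the Lkb1 arrays, and none of 17 passed the test, though 12 of 17 were called lower without replicate 1 of the Cdkn2a/Braf melanoma. Replicate 2 of the Cdkn2a/Braf melanoma was also the highest of the 4 for mast cell markers (10.34 and 11.94 against 10.08 and 9.31) and for Schwann cell markers (10.75 and 11.87 against 9.65 and 9.62). Neutrophil markers were highest on replicate 2 of the Lkb1 melanoma (12.01, against 9.56 to 10.19 on the other 3 arrays). Skeletal muscle markers were high on 1 array of each genotype (11.63 and 9.62 against 9.91 and 12.47). Xist was low (4.42 to 4.76) and the Y-linked Kdm5d, Eif2s3y and Uty were between 6.78 and 8.35 on all 4 tumour arrays. The proliferations had Xist between 10.47 and 10.98 and these Y-linked genes between 3.29 and 5.08, so they also differed from the tumours in sex-linked RNA. What part sex and the marked cell types played in the differences below was not tested.

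**Figure D2:**
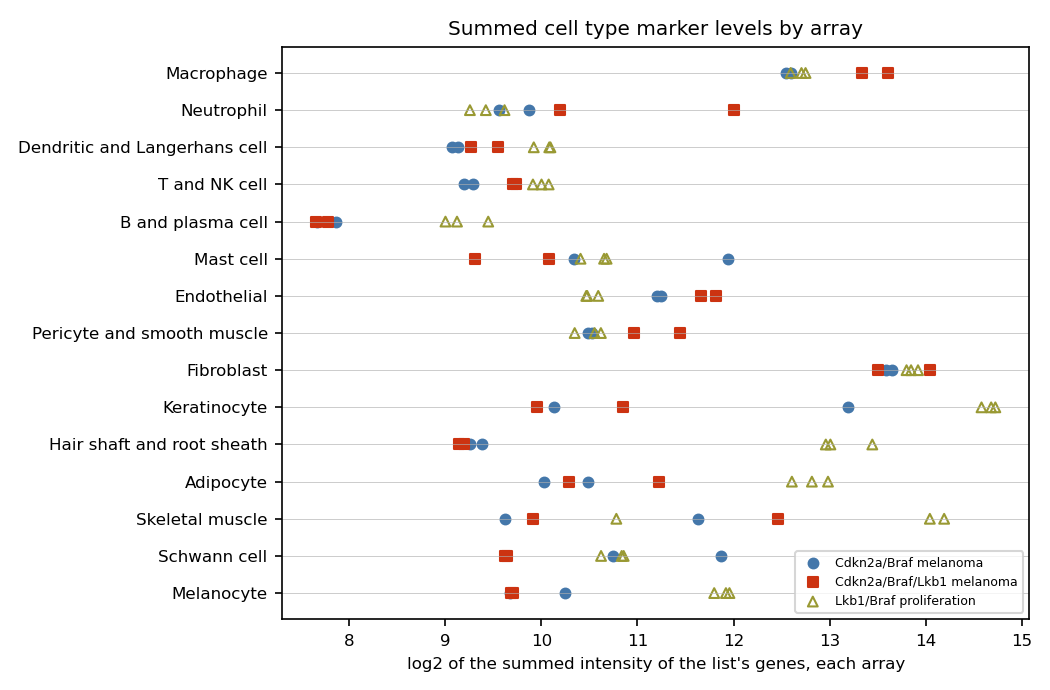
Each point is 1 array and gives log2 of the summed intensity of a cell type's marker genes (x) for each list (y). Circles are Cdkn2a/Braf melanomas, squares Cdkn2a/Braf/Lkb1 melanomas and open triangles Lkb1/Braf proliferations; keratinocyte markers reach 13.19 on 1 Cdkn2a/Braf melanoma, and macrophage markers lie at 13.34 and 13.60 in the Lkb1 melanomas against 12.54 and 12.60.

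The largest increase was that of AI506816, a long non-coding RNA gene on chromosome 5. Its levels were 3.65 and 4.41 on the Cdkn2a/Braf arrays and 10.82 and 11.03 on the Lkb1 arrays, a difference of 6.89 ± 0.40 (119-fold, limma adjusted p = 5.24e-05). It was also high in the Lkb1/Braf proliferations, at 9.75 to 10.31, and between 3.37 and 4.51 in every sorted melanocyte sample. It was therefore high on all 5 arrays labelled for Lkb1 and low on the other 8. Of those 8 only the 2 Cdkn2a/Braf melanomas were uncultured tissue, and the rest were sorted melanocytes. H2-Eb1, the beta chain of the MHC class II molecule that presents antigen to helper T cells, was likewise higher in both groups labelled for Lkb1: 6.96 and 6.91 in the Cdkn2a/Braf melanomas, 9.48 and 9.31 in the Lkb1 melanomas, and 9.12 to 9.68 in the proliferations, with 5.98 to 6.72 in sorted melanocytes. Its difference was 2.46 ± 0.22 (limma adjusted p = 9.16e-04).

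Other large increases put the Lkb1 melanomas above both the Cdkn2a/Braf melanomas and the proliferations. Ramp3, which pairs with the calcitonin receptor-like receptor to form an adrenomedullin receptor, had levels of 5.91 and 5.73 against 9.0 and 8.74, a difference of 3.06 ± 0.17 (limma adjusted p = 5.11e-05). The proliferations lay at 5.72 to 6.0, close to the Cdkn2a/Braf melanomas. Glipr1, a secreted protein of the CAP family, rose from 7.45 and 7.17 to 10.52 and 10.24 (3.07 ± 0.30). Trim30d, of a tripartite motif family, rose from 4.51 and 4.33 to 7.70 and 7.34 (3.09 ± 0.17), with 5.10 to 5.32 in the proliferations. Brinp3, of a family first described in neurons, rose from 5.15 and 6.07 to 8.72 and 9.59 (3.54 ± 0.33), and Nppb, the precursor of brain natriuretic peptide, from 7.51 and 7.84 to 10.20 and 10.51 (2.68 ± 0.31). Chrna1, the alpha subunit of the muscle acetylcholine receptor, rose by 2.60 ± 0.31. It is also a muscle gene, and the part of muscle tissue in its difference was not tested. These 6 genes and the pair above remained called without any 1 tumour array. Cd209f, a lectin of the DC-SIGN family, had levels of 8.01 and 5.96 against 10.43 and 9.78 (3.12 ± 0.51), and without replicate 1 of the Lkb1 melanoma its adjusted p was 0.0583. Moxd1, a monooxygenase related to dopamine beta-hydroxylase, had 5.38 and 7.17 against 9.08 and 8.72 (2.63 ± 0.47). It fell to 1.74 without replicate 1 of the Cdkn2a/Braf melanoma, and without replicate 1 or 2 of the Lkb1 melanoma its adjusted p was 0.0784 or 0.0538.

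**Figure D3:**
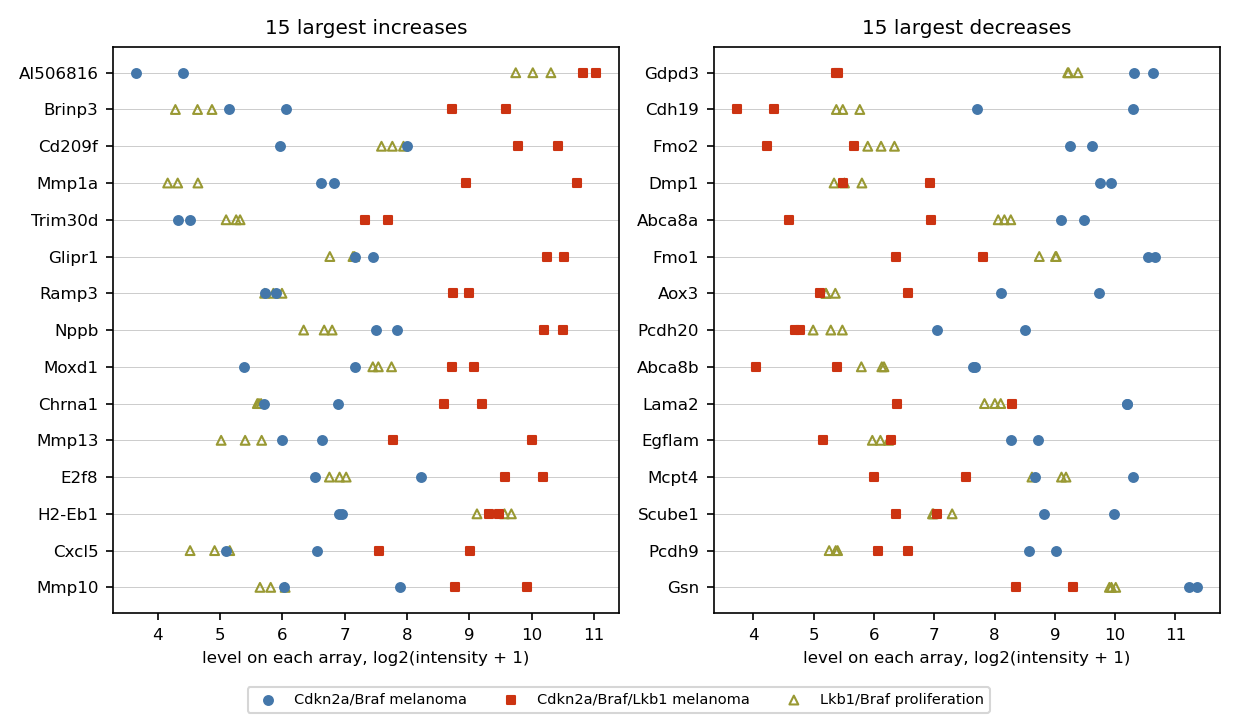
Each point is the level of a gene on 1 array, log2(intensity + 1) (x), for the 15 largest increases and the 15 largest decreases among called genes (y). Filled circles are the 2 Cdkn2a/Braf melanomas, filled squares the 2 Cdkn2a/Braf/Lkb1 melanomas and open triangles the 3 Lkb1/Braf proliferations; AI506816 and H2-Eb1 have triangles beside the squares, and Gdpd3 has them nearer the circles.

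The largest decrease was that of Gdpd3, an enzyme of the glycerophosphodiester phosphodiesterase family that releases lysophosphatidic acid from lysophospholipids. It had levels of 10.31 and 10.62 on the Cdkn2a/Braf arrays and 5.36 and 5.40 on the Lkb1 arrays, a difference of -5.09 ± 0.56 (34.0-fold lower, limma adjusted p = 0.00308). In the proliferations, which also carry the Lkb1 label, it lay at 9.21 to 9.38, and in sorted melanocytes at 8.43 to 11.13. Its 2 lowest values in the study were therefore the 2 Lkb1 melanomas. Dmp1, an acidic phosphoprotein of the mineralised matrix of bone and dentin, had another pattern: 9.94 and 9.75 in the Cdkn2a/Braf melanomas, 6.93 and 5.48 in the Lkb1 melanomas (-3.64 ± 0.36, limma adjusted p = 0.00179), and 5.08 to 5.80 on the arrays of the remaining groups. It was high in the Cdkn2a/Braf melanomas alone among the 6 groups.

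Fmo2, Fmo1, Abca8a, Abca8b and Aox3 were 5 of the 15 largest decreases. Fmo2, a flavin-containing monooxygenase that oxidises nitrogen and sulphur compounds, had levels of 9.62 and 9.25 against 5.67 and 4.23 (-4.48 ± 0.61, limma adjusted p = 0.00593). Fmo1, of the same family, had 10.54 and 10.66 against 7.80 and 6.37 (-3.51 ± 0.68), and was not called without replicate 1 or replicate 2 of the Cdkn2a/Braf melanoma or replicate 2 of the Lkb1 melanoma (-3.57, -3.45 and -2.80). The ABC lipid transporter genes Abca8a and Abca8b had 9.48 and 9.11 against 6.95 and 4.59 (-3.53 ± 0.57), and 7.65 and 7.68 against 5.38 and 4.05 (-2.95 ± 0.40). Both members of each pair are neighbouring paralogues, so a probe set could read RNA of its partner. Abca8a moved to -2.34 without replicate 2 of the Lkb1 melanoma and was not called without replicate 2 of the Cdkn2a/Braf melanoma (-3.71). Aox3, an aldehyde oxidase, had 9.73 and 8.11 against 6.57 and 5.11 (-3.08 ± 0.51) and was not called without replicate 2 of the Lkb1 melanoma (-2.35).

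Cdh19, Pcdh20, Pcdh9, Lama2, Egflam, Scube1 and Gsn were also among the 15 largest decreases. Cdh19, a cadherin of neural crest derivatives and Schwann cells, had levels of 7.71 and 10.29 against 4.34 and 3.72 (-4.97 ± 0.70, limma adjusted p = 0.00635). Sorted melanocytes had 7.59 to 9.50 and the proliferations 5.38 to 5.76. Of all genes, 0.732% were called lower and 45.0% had a difference above 0. The remaining 6 Schwann markers were all lower without passing the test (median of 7 markers -1.39), among them the transcription factor Sox10 (7.05 and 8.13 against 5.97 and 6.44, limma adjusted p = 0.0734), which melanocytes also use. Without replicate 2 of the Cdkn2a/Braf melanoma the list median was -0.83, with Cdh19 still called, and without its replicate 1 it was -1.93, with 4 of 7 called. The protocadherins Pcdh20 and Pcdh9 had 8.50 and 7.05 against 4.70 and 4.77 (-3.04 ± 0.37), and 8.56 and 9.01 against 6.56 and 6.07 (-2.47 ± 0.20). Egflam, which encodes the matrix protein pikachurin, fell by 2.78 on the log2 scale, Scube1, a secreted and membrane protein, by 2.70, and Gsn, the actin-severing gelsolin, from 11.35 and 11.22 to 9.29 and 8.36 (-2.46 ± 0.30). These 6 genes remained called without any 1 tumour array. Lama2, the laminin chain of muscle and nerve basement membranes, had 10.20 and 10.19 against 8.30 and 6.37 (-2.86 ± 0.55). Its difference was -3.82 and -1.90 without replicates 1 and 2 of the Lkb1 melanoma. It was -2.86 and -2.87 without replicates 1 and 2 of the Cdkn2a/Braf melanoma.

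Mcpt4, a mast cell chymase, had 8.66 and 10.30 against 7.53 and 6.0 (-2.71 ± 0.53, limma adjusted p = 0.0288) and was the 1 of 8 mast cell markers called. Of all genes, 0.732% were called lower and 45.0% had a difference above 0. All 8 mast cell markers were lower (median -0.76). Without replicate 2 of the Cdkn2a/Braf melanoma the median was -0.24 and Mcpt4 was not called (-1.90). Without replicate 2 of the Lkb1 melanoma Mcpt4 was not called either (-1.95).

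Mitosis genes were higher throughout the list in the Lkb1 melanomas, but the size rested on 1 array. All 34 measured genes had a positive difference, against 45.0% of all genes, with a median of 1.42 against -0.04 over all genes. In 32 of them the groups did not overlap higher (24.6% of all genes did). Of the 34, 7 passed the test, against 1.83% of all genes called higher. The 7 were Hmmr, Birc5, Ndc80, Cdc20, Plk1, Kif2c and Cenpa. Hmmr, a spindle and hyaluronan-binding protein, had 6.51 and 5.21 against 7.90 and 8.42 (2.30 ± 0.47, limma adjusted p = 0.0338). Ndc80, which attaches kinetochores to microtubules, had 8.40 and 7.13 against 9.39 and 9.40 (1.64 ± 0.37), and Cenpa, the histone H3 variant of centromeres, had 7.51 and 6.96 against 8.48 and 8.96 (1.49 ± 0.27). The median level of the list was 7.94 on replicate 1 and 6.57 on replicate 2 of the Cdkn2a/Braf melanoma, and 8.35 and 8.80 on the Lkb1 arrays; replicate 2 was the array with the high keratinocyte, mast and Schwann markers. Without it the median was 0.75 and none of the 7 was called (0.85 to 1.65), with Kif2c at 0.85 and Ndc80 at 1.00. Without replicate 1 of that genotype the median was 1.96 and 23 of 34 were called, without replicate 1 of the Lkb1 melanoma 5 of 34 (1.63), and without its replicate 2 only Cdc20 (1.17).

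DNA replication genes followed with smaller differences. Of 36 measured, 4 passed the test higher and none lower (median 0.71), against 1.83% and 0.732% of all genes. The 4 were E2f8, Tyms, Mcm3 and Ccne1. E2f8, an atypical E2F that represses cell cycle genes late in the cycle, had 8.22 and 6.52 against 9.57 and 10.18 (2.51 ± 0.45, limma adjusted p = 0.0182). Mcm3, a subunit of the replicative helicase, had 6.58 and 5.97 against 7.58 and 7.86 (1.44 ± 0.31). Without replicate 2 of the Cdkn2a/Braf melanoma none was called (median 0.33; E2f8 1.66, Mcm3 1.14), and without replicate 2 of the Lkb1 melanoma only Tyms was (median 0.55). Without replicate 1 of the Cdkn2a/Braf melanoma 11 of 36 were called (median 0.95), and without replicate 1 of the Lkb1 melanoma 5 of 36, Mcm3 not among them (1.58). Among 13 CDK inhibitors and brakes, Cdkn1b, which encodes p27, was the 1 gene called, and it was lower: 10.20 and 10.39 against 9.17 and 9.20 (-1.11 ± 0.21, limma adjusted p = 0.0267). It was called again without replicate 1 of the Cdkn2a/Braf melanoma only, with -1.02 to -1.12 in the other 3 cases.

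**Figure D4:**
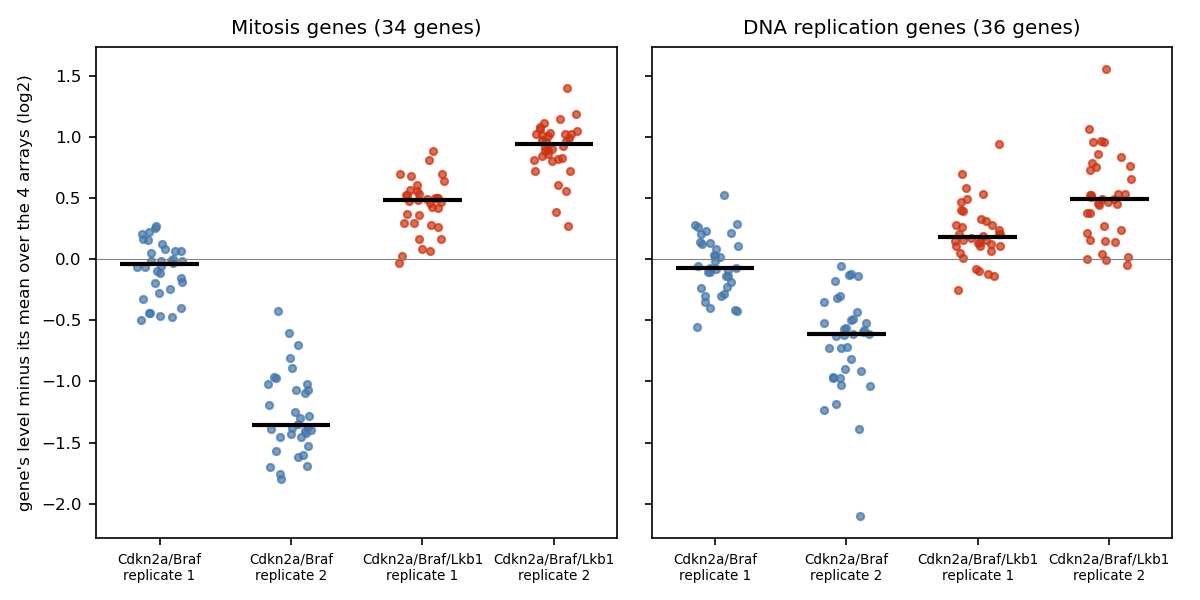
Each point is a gene of the mitosis (34) or DNA replication list (36), placed at its level on 1 array minus its mean over the 4 tumour arrays (log2, y), for each array (x), with a bar at the list's median. Replicate 2 of the Cdkn2a/Braf melanoma lies lowest in both lists, replicate 1 lies next and the Lkb1 arrays lie highest.

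The promoters of 3 of these called mitosis genes and of Mcm3 are shown because they hold, within the stretch printed, a motif that many cell cycle genes share. The CHR motif (TTTGAA) marks genes expressed in G2 and mitosis and the E2F motif, searched as TTTCCCGC or TTTGGCGC, marks genes of the S phase, both taken here on either strand. Within the windows of 250 bases before to 50 after the start in the RefSeq table (GRCm38.p6), CHR was found in 21 of 29 promoters of 28 mitosis genes (72.4%), against 14.8% of the 19176 promoters of all tested genes. E2F was found in 11 of 36 promoters of replication genes (30.6%) against 2.21%. The 353 promoters of all genes called higher held CHR in 15.6% and E2F in 1.70%, close to the shares over all genes. Of the called genes, Birc5 held no CHR match, and Tyms, Ccne1 and E2f8 held no E2F match in their windows. A match is a description of letters only. Capitals mark the motif in sequences that begin 100 bases before the annotated start: Cdc20 (chr4:118437344-118437443, minus strand), Cenpa (chr5:30666786-30666911, plus strand), Hmmr (chr11:40733420-40733537, minus strand) with CHR, and Mcm3 (chr1:20820283-20820412, minus strand) with E2F.
Cdc20: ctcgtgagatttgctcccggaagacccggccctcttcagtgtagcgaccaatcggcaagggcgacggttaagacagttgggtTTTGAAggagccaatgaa
Cenpa: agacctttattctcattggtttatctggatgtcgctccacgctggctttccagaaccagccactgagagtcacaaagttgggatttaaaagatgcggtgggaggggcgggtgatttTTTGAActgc
Hmmr: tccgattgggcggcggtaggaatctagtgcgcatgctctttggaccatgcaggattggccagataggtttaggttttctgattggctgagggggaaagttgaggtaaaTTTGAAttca
Mcm3: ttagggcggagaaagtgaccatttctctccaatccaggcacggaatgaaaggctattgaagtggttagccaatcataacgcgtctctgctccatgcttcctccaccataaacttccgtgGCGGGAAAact

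Genes that break down or rebuild extracellular matrix rose in part. Of 23 matrix proteases and urokinase system genes, 4 passed the test higher and none lower, against 1.83% and 0.732% of all genes. The list median was 0.40, and 0.61 without replicate 2 of the Lkb1 melanoma. Plaur, the urokinase receptor that focuses plasmin formation on the cell surface, had 6.58 and 6.63 against 8.35 and 8.68 (1.91 ± 0.15, limma adjusted p = 7.83e-04) and was called without any 1 array. Adamts4, an aggrecan-cleaving protease, rose by 0.95 ± 0.12 and was as steady. The collagenases and stromelysin varied more between replicates: Mmp13 had 6.0 and 6.64 against 10.00 and 7.78 (2.57 ± 0.55), and Mmp10 had 7.88 and 6.03 against 8.78 and 9.92 (2.39 ± 0.51). Mmp1a, an interstitial collagenase outside the list, had 6.83 and 6.62 against 8.94 and 10.73 (3.11 ± 0.44, limma adjusted p = 0.00635). Mmp13 was 1.46 without replicate 1 of the Lkb1 melanoma and not called without either Cdkn2a/Braf replicate (2.25 and 2.89). Mmp10 was not called without replicate 2 of the Cdkn2a/Braf melanoma (1.47) or of the Lkb1 melanoma (1.82), nor Mmp1a without the former (3.00). Timp3, an inhibitor of these proteases, had 11.68 and 11.89 against 10.57 and 8.54 and missed the threshold (limma adjusted p = 0.0766). Its relatives in the list went both ways without a call: Timp1 differed by 1.46, Timp2 by -0.23 and Timp4 by 0.04.

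The matrix itself changed in a few genes. Of 25 collagens and matrix genes 3 passed the test, all higher, against 1.83% of all genes called higher. The list median was 0.32, and 0.18 without replicate 1 of the Cdkn2a/Braf melanoma, 0.06 and 0.56 without replicates 1 and 2 of the Lkb1 melanoma. Tnc, tenascin-C, a glycoprotein of wounds and tumour stroma, had 9.81 and 9.39 against 11.75 and 11.65 (2.10 ± 0.26, limma adjusted p = 0.00412), with 7.14 to 7.85 in the proliferations and 5.63 to 7.38 in sorted melanocytes. Col1a1, the main fibrillar collagen chain, had 8.42 and 8.32 against 9.73 and 9.79 (1.39 ± 0.17). Col12a1 had 9.43 and 9.36 against 11.08 and 11.61 (1.95 ± 0.39), with differences of 1.68 to 2.22 when 1 tumour array was left out. Lox, which cross-links collagen, had 7.98 and 7.81 against 9.50 and 9.75 (1.73 ± 0.27, limma adjusted p = 0.00996) and was not called without replicate 2 of either genotype (1.64 and 1.60). Acta2, smooth muscle actin, had 7.55 and 7.73 against 9.50 and 8.89 (1.56 ± 0.25) and was not called without replicate 2 of the Cdkn2a/Braf melanoma (1.65). The summed fibroblast markers overlapped between the genotypes (13.65 and 13.59 against 14.05 and 13.50).

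Promoters of Mmp1a, Mmp10, Mmp13 and Plaur are shown for AP-1, the dimer of Fos and Jun proteins, whose motif TGANTCA (both strands) was found in 8 of 19 promoters of the matrix protease list (42.1%), in 6.90% of all 19176 promoters and in 11.3% of the 353 promoters of genes called higher. Fosl1, which encodes the AP-1 subunit FRA1, had 6.44 and 6.17 against 7.47 and 8.48 (1.67 ± 0.28, limma adjusted p = 0.0129) and was not called without replicate 2 of the Cdkn2a/Braf melanoma (1.54). It was the 1 gene called of 19 AP-1 and immediate early genes, whose median difference was -0.17. In that list 9 differences were above 0, among them Junb (0.40), and 10 below, among them Fos (-0.53) and Jun (-0.47). The sequences cover the 100 bases before the annotated start on the plus strand (RefSeq, GRCm38.p6), with the motif in capitals: Mmp1a (chr9:7464041-7464140), Mmp10 (chr9:7502242-7502341), Mmp13 (chr9:7272414-7272513) and Plaur (chr7:24462383-24462482).
Mmp1a: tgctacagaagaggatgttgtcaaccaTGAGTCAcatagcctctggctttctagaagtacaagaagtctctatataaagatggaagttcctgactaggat
Mmp10: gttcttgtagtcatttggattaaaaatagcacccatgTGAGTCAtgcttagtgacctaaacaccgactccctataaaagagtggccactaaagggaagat
Mmp13: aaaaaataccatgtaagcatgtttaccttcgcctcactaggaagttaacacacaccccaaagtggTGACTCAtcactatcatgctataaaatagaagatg
Plaur: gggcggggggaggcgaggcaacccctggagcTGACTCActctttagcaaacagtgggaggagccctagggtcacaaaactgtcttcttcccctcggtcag

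Of 19 macrophage markers 5 passed the test, all higher (median 0.75), against 1.83% of all genes called higher. The summed marker level did not overlap between genotypes (12.60 and 12.54 against 13.60 and 13.34). Clec4n, the fungal pattern receptor dectin-2, had 7.09 and 7.32 against 9.42 and 9.73 (2.37 ± 0.19, limma adjusted p = 7.83e-04). Msr1, a scavenger receptor, had 8.22 and 7.78 against 9.60 and 9.28 (1.44 ± 0.18). Both were called without any 1 array. Cd68, Clec4d and Fcgr1 were the other 3; without replicate 2 of the Cdkn2a/Braf melanoma only Clec4n and Msr1 were called, Clec4d was 1.13 without replicate 2 of the Lkb1 melanoma (from 1.76) and Fcgr1 was 0.95 without its replicate 1 (from 1.43). The general macrophage marker Adgre1 (F4/80) had 8.18 and 7.36 against 9.44 and 8.60 and Csf1r had 8.20 and 8.34 against 9.42 and 8.81, with neither past the test. The list did not move wholly one way, with 17 differences above 0 and 2 below. Mertk, a receptor for dying cells, had 8.97 and 9.64 against 8.14 and 7.95 (-1.26 ± 0.31, limma adjusted p = 0.0662), and Trem2 differed by -0.17 ± 0.13. Both had groups that did not overlap, as did 28.9% of all genes in the lower direction. Without replicate 1 of the Cdkn2a/Braf melanoma 1 of the 19 markers was called lower. Of the 7 MHC class II genes all had positive differences (median 0.80), against 45.0% of all genes. H2-DMa, which loads peptide, had 7.21 and 7.64 against 9.36 and 9.58 and was called beside H2-Eb1. H2-DMa lost its call whichever tumour array was left out (1.83 to 2.26).

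Of 27 chemokines 8 passed the test, all higher (median 0.61), against 1.83% of all genes called higher. The 8 were Cxcl5, Ccl8, Ccl5, Ccl12, Pf4, Ccl7, Cxcl16 and Cxcl14. Ccl5, which attracts T cells and monocytes, had 6.99 and 7.62 against 8.89 and 9.14 (1.71 ± 0.20, limma adjusted p = 0.00380) and was called without any 1 array. Ccl8, a monocyte attractant, had 8.38 and 8.46 against 10.41 and 10.16 (1.87 ± 0.30, and 1.74 and not called without replicate 1 of the Lkb1 melanoma). Cxcl5, which attracts neutrophils, had 6.55 and 5.10 against 7.55 and 9.01 (2.46 ± 0.49), and was not called without replicate 2 of either genotype (1.73 each). Without replicate 2 of the Cdkn2a/Braf melanoma Ccl5 alone of the 8 was called (0.98 to 2.08 for the 8), while 6, 4 and 5 of the 8 were called without replicate 1 of that genotype and replicates 1 and 2 of the Lkb1 melanoma. Of 10 chemokine receptors 3 were called higher, Cxcr3, Cxcr4 and Ccr1, and none of them without replicate 2 of the Cdkn2a/Braf melanoma (1.04 to 1.76). Cxcr3 was 1.36 without replicate 2 of the Lkb1 melanoma, from 2.07.

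Of 15 interleukin-1 family and alarmin genes 3 were called, all higher (median 0.48), against 1.83% of all genes called higher. The median was 0.96 without replicate 2 of the Cdkn2a/Braf melanoma and 0.73 without replicate 1 of the Lkb1 melanoma. Il1rn, the natural antagonist of the interleukin-1 receptor, was the steadiest, at 6.34 and 6.36 against 7.62 and 7.85 (1.38 ± 0.15, limma adjusted p = 0.00264). Il1b had 6.35 and 7.41 against 8.27 and 10.01 (2.26 ± 0.49) and the neutrophil protein gene S100a8 had 6.34 and 6.81 against 8.09 and 9.70 (2.32 ± 0.50). Both were highest on replicate 2 of the Lkb1 melanoma, the array with the high neutrophil sum, and were 1.39 and 1.51 without it. Without replicates 1 and 2 of the Cdkn2a/Braf melanoma Il1b was 1.73 and 2.79, and S100a8 was 2.08 and 2.56. S100a8 is itself in the neutrophil list, so that sum includes it. The list's median level was 5.91 on that array and 5.31 to 5.54 on the other tumour arrays. Of its 12 genes 10 had positive differences, against 45.0% of all genes. Among them were small ones for Ly6g (0.09) and Ltf (0.02), while Ngp (-0.02) and Camp (-0.25) were negative. Havcr2, the checkpoint receptor TIM-3, had 5.44 and 5.93 against 7.37 and 6.88 (1.44 ± 0.20, limma adjusted p = 0.00635) and was called without any 1 array. It was 1 of 2 genes called, both higher, among 12 immune checkpoint genes (list median 0.30). In that list 9 differences were above 0 and 3 below, with Pdcd1 at -0.28 and Lag3 at -0.09. In the interferon list 2 of 22 genes were called higher, Irf7 (0.78 ± 0.13) and Oas1a (0.73 ± 0.16), with a list median of 0.16; neither was called without replicate 2 of the Cdkn2a/Braf melanoma (0.72 and 0.58), nor was Oas1a without either Lkb1 replicate (0.78 and 0.68).

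**Figure D5:**
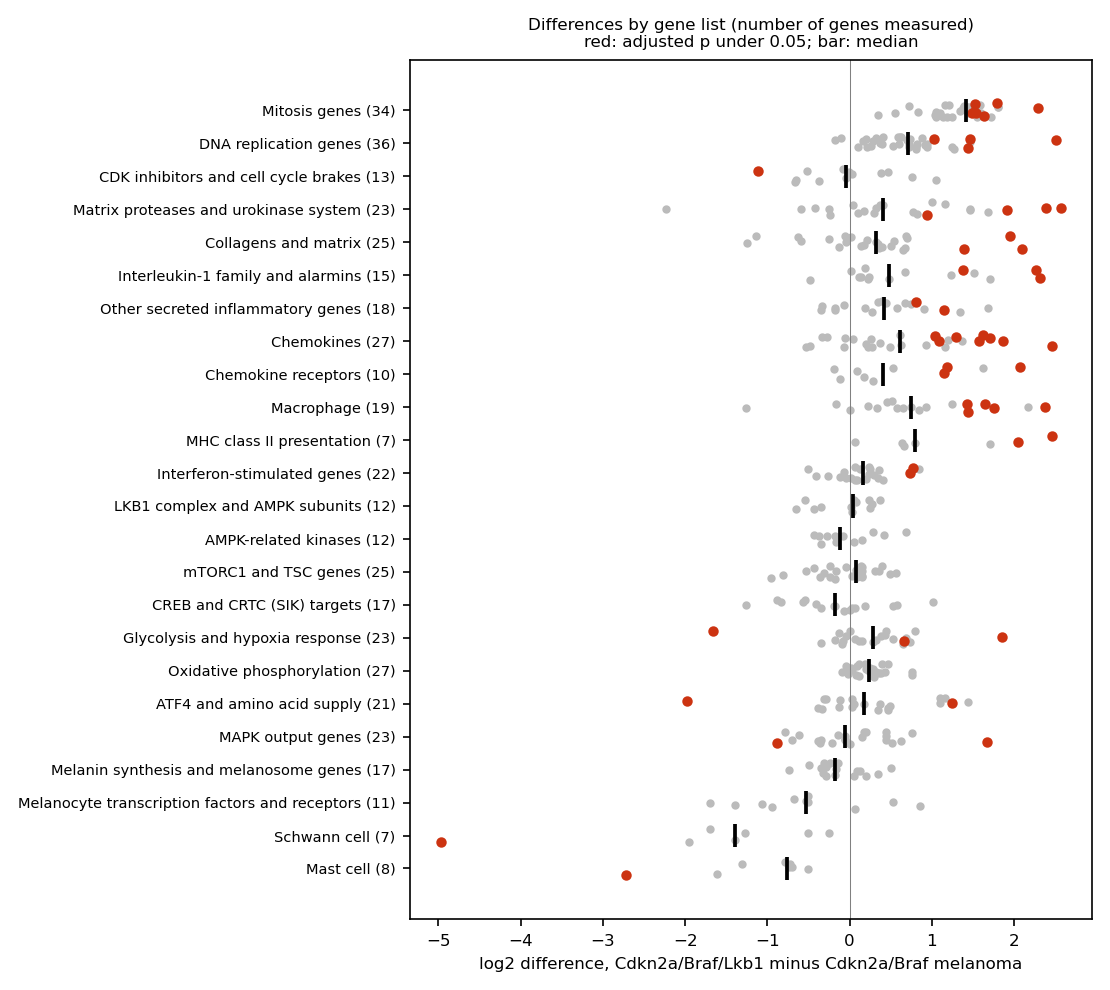
Each point is a gene of the list named at the left, with the number measured in brackets, at its log2 difference between the Cdkn2a/Braf/Lkb1 and Cdkn2a/Braf melanomas (x). Red points passed an adjusted p of 0.05 and bars mark medians; the medians run from -1.39 for Schwann cell markers to 1.42 for mitosis genes, and the LKB1, AMPK and mTORC1 lists hold no red point.

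The genes of the LKB1 pathway itself showed no called difference at the RNA level in the main fit. With 2.56% of all genes called, lists this short would hold few calls or none. None of 12 LKB1 complex and AMPK subunit genes passed the test (median 0.05, from -0.65 for Stk11 to 0.37 for Prkag1), and 1 of 12 had an unadjusted p under 0.05, against 19.2% of all genes. None of 12 AMPK-related kinase genes did (median -0.12), among them Sik1 (7.72 and 8.37 against 7.72 and 7.69) and Nuak1 (6.45 and 6.56 against 7.38 and 6.99). None of 25 mTORC1 and TSC genes did (median 0.08) and 5 of 25 had an unadjusted p under 0.05, near the share over all genes. In that list 1 gene was called lower after quantile normalization, with array weights and in the fit of the 7 tissue arrays. The same count was called lower when only genes with a level over 6 on at least 2 arrays were tested. Without replicate 1 of the Cdkn2a/Braf melanoma 1 gene of the LKB1 and AMPK list and 1 of the mTORC1 and TSC list were called, both lower. Deptor, which encodes an inhibitor bound to mTOR, was nearest, at 8.0 and 8.43 against 7.31 and 7.22 (-0.95 ± 0.22, limma adjusted p = 0.0516). None of 17 CREB and CRTC target genes did (median -0.17), but the list varied with the arrays: without replicates 1 and 2 of the Cdkn2a/Braf melanoma 4 and none were called lower (medians -0.20 and 0.04), and without replicates 1 and 2 of the Lkb1 melanoma 1 and none were called higher (-0.36 and -0.09). With array weights, and in the fit of the 7 tissue arrays, 1 gene of the CREB and CRTC list was called lower. In that list was Ppargc1a, a coactivator of mitochondrial genes, at 6.46 and 6.83 against 5.54 and 5.22 (-1.26 ± 0.36, limma adjusted p = 0.0957). These kinases and complexes act by phosphorylation, which RNA levels do not measure.

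Metabolic lists moved in single genes, and over all genes 1.83% were called higher and 0.732% lower. None of 27 oxidative phosphorylation genes was called, with a median of 0.24 and 23 of 27 differences above 0, against 45.0% of all genes. Of 23 glycolysis and hypoxia genes, Slc16a1 and Slc2a3 were called higher and Aldoc lower (list median 0.29). Slc16a1, the lactate carrier MCT1, had 6.72 and 6.85 against 8.01 and 9.26 (1.85 ± 0.34, limma adjusted p = 0.0220). Slc2a3 (0.67 ± 0.13) lost its call whichever array was left out, and Aldoc (-1.66 ± 0.31) without replicate 2 of the Cdkn2a/Braf melanoma (-1.16) or replicate 1 of the Lkb1 melanoma (-1.42). Slc16a1 was called again only without replicate 1 of the Lkb1 melanoma, and was 1.23 without replicate 2 of that genotype and 1.79 and 1.91 without replicates 1 and 2 of the Cdkn2a/Braf melanoma. Of 21 genes in the ATF4 and amino acid supply list 1 was called higher and 1 lower (median 0.18, and 0.40, 0.10 and 0.37 without replicates 1 and 2 of the Cdkn2a/Braf melanoma and replicate 1 of the Lkb1 melanoma). Mthfd2, a mitochondrial enzyme of folate metabolism, had 6.82 and 6.25 against 7.52 and 8.05 (1.25 ± 0.28, limma adjusted p = 0.0476) and was called again only without replicate 1 of the Cdkn2a/Braf melanoma, with 0.97 without its replicate 2 and 1.52 and 0.99 without replicates 1 and 2 of the Lkb1 melanoma. Vldlr, a lipoprotein receptor, had 9.28 and 9.51 against 7.68 and 7.15 (-1.98 ± 0.23, limma adjusted p = 0.00386) and was called without any 1 array. Of 23 MAPK output genes, Fosl1 was higher and Spry2, a feedback inhibitor of the cascade, was lower, at 8.92 and 8.44 against 7.92 and 7.69 (-0.88 ± 0.19, limma adjusted p = 0.0467), with a list median of -0.05; Spry2 lost its call whichever tumour array was left out (-0.64 to -1.12).

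The remaining lists held few calls, and over all genes 1.83% were called higher and 0.732% lower. Rplp1, a ribosomal stalk protein gene, was the 1 of 17 ribosomal protein genes called, at 11.40 and 11.50 against 12.38 and 12.37 (0.93 ± 0.11, limma adjusted p = 0.00404), and held without any 1 array, with a list median of 0.06. Pik3r1, the regulatory subunit of PI3 kinase, was the 1 of 23 IGF, PI3K and AKT genes called, at 10.18 and 10.22 against 9.42 and 9.25 (-0.87 ± 0.15), and lost its call without replicate 2 of the Cdkn2a/Braf melanoma (-0.85) or of the Lkb1 melanoma (-0.79). None of 20 sterol and fatty acid synthesis genes (median 0.22), 19 fatty acid oxidation genes (0.04), 25 lysosome genes (0.13), 11 melanocyte transcription factor and receptor genes (-0.54), 10 let-7 target genes (0.02) or 12 endothelial markers (0.04) passed the test. With 1 tumour array left out, up to 2 of the 11 melanocyte genes and 1 of the 20 sterol genes were called.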

How the data were processed

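The deposited series table holds linear probe set intensity values of 13 Affymetrix arrays, normalized with RMA per the submitters' processing notes, from RNA purified and amplified by NuGEN reagents per the labels. The authors' version of RMA, background settings and annotation are not given in the sources used here. Of 34760 probe sets, 21640 named 1 gene in the platform annotation, 1321 several and 11799 were unlisted; genes (19937) took their brightest probe set on average. Values were log2(intensity + 1). limma 3.58.1 (R 4.3.3) fitted 6 group means over all arrays with a moderated variance, and p-values were adjusted by Benjamini-Hochberg over all genes at 0.05. The number of arrays limits the precision. Named genes were the 15 largest increases and 15 largest decreases with adjusted p under 0.05, a difference of at least 1 and groups that did not overlap (symbols starting Gm or ending Rik after all others), most called members of the gene lists, and altered genes. The called list members Tnfrsf10b, Ereg, Tgfb1, Lgals9, Itgax, Cd4 and Rgs5, all higher, were not described above. Genes named beside these (uncalled list members, and the calls of the fit on 4 arrays) were chosen after their values were seen. The comparison and the gene lists were chosen with earlier results of these data known. Promoters came from RefSeq tables. The fit was tested on simulated data, and alternatives changed scaling, filters, arrays and blocks.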

Additional observations from a re-analysis of the deposited data

How the results depend on the processing

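Among 17 alternatives, calls totalled 318 after quantile normalization, 336 with a common interquartile range, 202 when only genes above the median level were tested, 794 in a fit of the 7 tissue arrays and 8 in a fit of the 4 tumour arrays, against 510. Higher calls numbered 218 (quantile), 146 (above the median level), 580 (tissue arrays) and 7 (tumour arrays). Lower calls numbered 92 (interquartile range), 56 (above the median level) and 1 (tumour arrays). Median centring made 81.2% of calls higher, against 71.4%. The chemokine median was 0.49 after quantile normalization and 0.49 with a common interquartile range. Leaving out 1 array gave 135 to 737 calls, 90 to 379 higher and 45 to 358 lower, a replication median of 0.33 to 0.95 and a chemokine median of 0.48 to 0.88. No named difference turned its sign among called genes. With the replicate number as a block, 259 genes were called (193 higher, 66 lower); the numbers did not pair the tumours (r = -0.12). Crossed numbers as a block, added after the data were seen, left 333 calls, 240 higher and 93 lower. The 96 calls that held without any 1 tumour array also held in each alternative that kept all genes, except the fit on 4 arrays (8). Arrays of 2 tumours a group limit what differences can be called.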

Other observations

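Called genes that lie next to each other on a chromosome were a recurring feature. Of 364 genes called higher, 41 (11.3%) had a tested neighbour called higher, against 3.58% of all 19918 placed genes, and of 146 called lower 8 (5.48%) had one called lower, against 1.45%. Higher neighbours included Ms4a7, Ms4a4a and Ms4a4c on chromosome 19, Tnfrsf26, Tnfrsf22 and Tnfrsf23 on chromosome 7, Trim30a and Trim30d on chromosome 7, Cd209f and Cd209g on chromosome 8, Clec4n and Clec4d on chromosome 6, Ccl12 and Ccl8 on chromosome 11, and Mmp1a and Mmp10 on chromosome 9. Lower neighbours included Fmo1 and Fmo2 on chromosome 1, Abca8a and Abca8b on chromosome 11, and Pcdh20 and Pcdh9 on chromosome 14. Most are paralogues, whose probe sets could read each other's RNA, and what that adds to the counts was not tested. These neighbours were looked for after the calls were seen.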
